A study of Mus musculus with 79 samples.

Results

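Glial nuclei make up a large part of the cortex beside neurons, and the genes that mark them serve both as a gauge of how clean a neuronal sort is and as readouts of glia themselves. The genes described here are 32 markers of the astrocyte and oligodendrocyte lineages out of 55335 genes in the count table, chosen by name: 12 astrocyte genes, 12 genes of myelinating oligodendrocytes and 8 genes of oligodendrocyte precursors and of the lineage as a whole. All 32 were found in the table. The libraries are 79 nuclear RNA-seq libraries from mouse visual cortex, each made from 50 to 100 sorted nuclei.

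Every mouse was heterozygous for INTACT, a tag on the nuclear envelope, and for VIP Cre, which marks inhibitory neurons that express vasoactive intestinal peptide, and all were labelled as dark housed for 10 days. At an age of 55 to 60 days the cortex was injected with an AAV in which the Syn1 promoter drives Kir2.1, a potassium channel that lowers neuronal excitability, joined by 2a to mScarlet-KASH, a red label of the nuclear envelope, or with the same AAV holding Kir2.1(Mutant), and darkness began 3 days later; 2 further groups had no AAV. The Syn1 promoter is active in neurons, so a transduced nucleus here is a neuronal nucleus with the vector and its label. The protocol also mentions harvest after 1 h of light, but no label marks a library as light exposed.

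The 10 groups are all non-transduced nuclei with Kir2.1 (10 libraries), mutant (9) or no AAV (3), non-transduced VIP nuclei with Kir2.1 (10), mutant (9) or no AAV (3), transduced VIP nuclei with Kir2.1 (10) or mutant (9), and transduced neurons with Kir2.1 (8) or mutant (8). Library totals ran from 3219899 to 9267246 counts. Nothing in the labels ties a library to 1 mouse, so the spread behind each p-value may be partly technical. Levels are CPM, the library-size-scaled count of a gene, and a gene is called where the adjusted p is under 0.05 over all genes tested.

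The VIP sort was checked by Vip, which averaged 3946 ± 1393 CPM in non-transduced VIP nuclei (SD, n = 22) and 7.89 ± 15.7 CPM in all nuclei (SD, n = 22), while Slc17a7, a vesicular glutamate transporter of excitatory neurons, averaged 4.55 ± 3.11 and 59.3 ± 28.4 CPM there (SD, n = 22 each). In transduced neurons Slc17a7 averaged 66.9 ± 21.7 CPM (SD, n = 16), near its level in all nuclei. In bulk samples, fewer cells of a type and less RNA per cell cannot be told apart.

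Oligodendrocytes wrap axons in myelin, whose proteins include Mbp, Mobp, Mog, Mag and Cnp. Their precursors carry Pdgfra, the receptor for platelet-derived growth factor, and Cspg4 (NG2), and the transcription factors Olig1, Olig2 and Sox10 act across the lineage. Astrocytes clear glutamate through Slc1a2 (GLT-1) and Slc1a3 (GLAST), exchange bicarbonate through Slc4a4, and are joined by the gap junction proteins Gja1 and Gjb6.

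The promoters of oligodendrocyte genes are shown because those genes moved together between sorts and because SOX factors such as Sox10 are known activators of myelin genes. RefSeq promoter windows of 300 bases (build GRCm38.p6) were matched for 25 of the 32 genes, and 7 motifs were searched on both strands. ACAAAG, a core that SOX proteins bind, was chosen for display after the matches of all 7 had been seen, so its count is a description only. It occurred in a window of 5 of the 10 oligodendrocyte genes matched, 0 of 10 astrocyte genes and 0 of 5 precursor and lineage genes, against 21.0% of the 27025 genes with a window and 18.7% of all windows. The variants ACAATG (2 of 10, 0 of 10 and 1 of 5 genes in the same order; 14.3% of all genes) and AACAAT (1 of 10, 0 of 10 and 1 of 5; 12.2%), which can overlap each other, were found in few genes. The E-box letters were CAGCTG (2 of 10, 2 of 10 and 1 of 5; 18.3%) and CATATG (0 of 10, 0 of 10 and 0 of 5; 4.49%). For NFI factors the full palindrome gave few matches (0 of 10, 0 of 10 and 0 of 5; 0.044%) and the short core TGGCA, which overlaps it, gave many (8 of 10, 3 of 10 and 1 of 5; 52.2%). These are matches of letters, not measured sites. The upstream stretches of 4 genes with a match to ACAAAG follow, picked because they hold one, 5′ to 3′ on the gene's strand and without annotated exons, with the match to ACAAAG or its reverse complement in capitals. Mobp lies at chr9:120149492-120149706 (+ strand) and has 6 matches, Cnp at chr11:100574689-100574903 (+ strand), Mag at chr7:30914923-30915172 (- strand) and Opalin at chr19:41077114-41077363 (- strand).
Mobp: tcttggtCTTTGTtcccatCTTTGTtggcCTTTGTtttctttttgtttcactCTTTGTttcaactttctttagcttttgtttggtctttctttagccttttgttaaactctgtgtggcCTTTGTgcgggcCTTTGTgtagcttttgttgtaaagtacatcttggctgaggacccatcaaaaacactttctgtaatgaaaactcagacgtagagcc
Cnp: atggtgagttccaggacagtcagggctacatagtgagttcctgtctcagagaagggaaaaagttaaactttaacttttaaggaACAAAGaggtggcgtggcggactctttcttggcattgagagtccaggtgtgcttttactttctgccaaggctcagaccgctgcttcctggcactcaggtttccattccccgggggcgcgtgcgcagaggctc
Mag: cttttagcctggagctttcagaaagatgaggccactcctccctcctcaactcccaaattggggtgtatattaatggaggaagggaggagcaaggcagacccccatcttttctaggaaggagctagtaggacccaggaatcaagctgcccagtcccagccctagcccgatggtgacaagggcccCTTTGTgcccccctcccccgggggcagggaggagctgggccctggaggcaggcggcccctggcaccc
Opalin: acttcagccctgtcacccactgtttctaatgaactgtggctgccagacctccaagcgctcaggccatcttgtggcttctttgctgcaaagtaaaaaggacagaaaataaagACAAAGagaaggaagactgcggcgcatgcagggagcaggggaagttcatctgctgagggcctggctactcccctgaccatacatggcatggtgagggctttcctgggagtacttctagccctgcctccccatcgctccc

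How far each sort removed oligodendrocyte RNA was read from non-transduced VIP nuclei against all nuclei and from transduced neurons against all non-transduced nuclei. In the neuron comparison transduction and population differ together and cannot be told apart, for every gene described below. All 12 oligodendrocyte genes were lower in VIP nuclei, where 19.7% of all genes tested were lower, and all 12 were lower in transduced neurons, where 7.75% were lower. In transduced neurons alone 8 of the 12 passed the filter on low counts. The others were tested in neurons only through their level in all nuclei, so for them a lower call was largely set in advance. Their median log2 fold change was -3.85 in VIP nuclei (all genes -0.05) and -4.33 in neurons (all genes 0.02). What remained differed widely from gene to gene: in VIP nuclei the fitted level was 1.30% of that in all nuclei for Prr5l and 37.6% for Cnp.

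Prr5l, a regulator of the mTORC2 kinase complex (Ensembl ENSMUSG00000032841, chromosome 2, 101714285 to 101883027, - strand, mm10), had the lowest remainder of the 12 in both sorts. It ranged from 27.4 to 285.3 CPM in all nuclei (median 145.7), from 0 to 7.61 CPM in non-transduced VIP nuclei (median 1.25) and from 0 to 2.78 CPM in transduced neurons (median 0.11). The all-nuclei libraries did not overlap with either sort. The log2 fold change was -6.27 ± 0.37 (SE; adjusted p = 9.69e-21) in VIP nuclei and -7.90 ± 0.42 (SE; adjusted p = 7.101e-19) in neurons. Prr5l fell below the filter on low counts in transduced neurons alone, so its lower call there was largely set in advance.

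St18, a zinc finger transcription factor, was lower by a log2 fold change of -4.77 ± 0.30 in VIP nuclei and of -7.52 ± 0.40 in neurons. Between the transduced sorts St18 was also lower in neurons than in VIP nuclei (log2 fold change -2.72 ± 0.59, adjusted p = 2.803e-04), with means of 1.30 ± 1.5 CPM (SD, n = 16) and 8.33 ± 6.30 CPM (SD, n = 19). In transduced neurons alone St18 fell below the filter on low counts. It was tested in neurons only through its level in the other sort, so both lower calls in neurons were largely set in advance. St18 was the only one of the 12 oligodendrocyte genes called between the transduced sorts, where 12.0% of all genes were lower and 16.4% higher in neurons.

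Apart from Mbp and Cnp, the other 8 genes kept from 2.94% to 14.2% of the all-nuclei level in VIP nuclei, beside 3.66% for St18. They were Ugt8a, which makes the myelin lipid galactocerebroside (2.94%), the myelin proteins Mag (5.71%), Opalin (5.98%), Mal (6.74%) and Mog (7.09%), the tight junction protein Cldn11 (8.18%), the cytoskeletal protein Ermn (10.9%) and Mobp (14.2%). In neurons the same 8 genes kept from 2.49% (Mag) to 10.9% (Mobp).

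Mbp, the myelin basic protein gene, and Cnp, a myelin phosphodiesterase, stayed well above the others in the sorted neuronal nuclei. Mbp ranged from 209.4 to 865.2 CPM in all nuclei (median 468.4), from 41.98 to 301.9 CPM in non-transduced VIP nuclei (median 122.4), from 16.4 to 285.7 CPM in transduced VIP nuclei (median 114.6) and from 69.6 to 269.4 CPM in transduced neurons (median 112.9). The top of each sorted population reached into the lower libraries of all nuclei. The log2 fold change of Mbp was -1.99 ± 0.18 (SE; adjusted p = 2.025e-13) in VIP nuclei and -2.07 ± 0.17 (SE; adjusted p = 6.665e-13) in neurons.

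Cnp ranged from 56.6 to 276.8 CPM in all nuclei (median 153.2), from 16.5 to 98.4 CPM in non-transduced VIP nuclei (median 62.97) and from 36.5 to 77.0 CPM in transduced neurons (median 56.6). Its log2 fold change was -1.41 ± 0.15 (SE; adjusted p = 5.249e-11) in VIP nuclei and -1.48 ± 0.15 (SE; adjusted p = 4.146e-10) in neurons. Cnp overlaps Dnajc7 on the opposite strand, and the library kit does not mark strand, so reads of the pair cannot be told apart where they overlap.

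**Figure D1:**
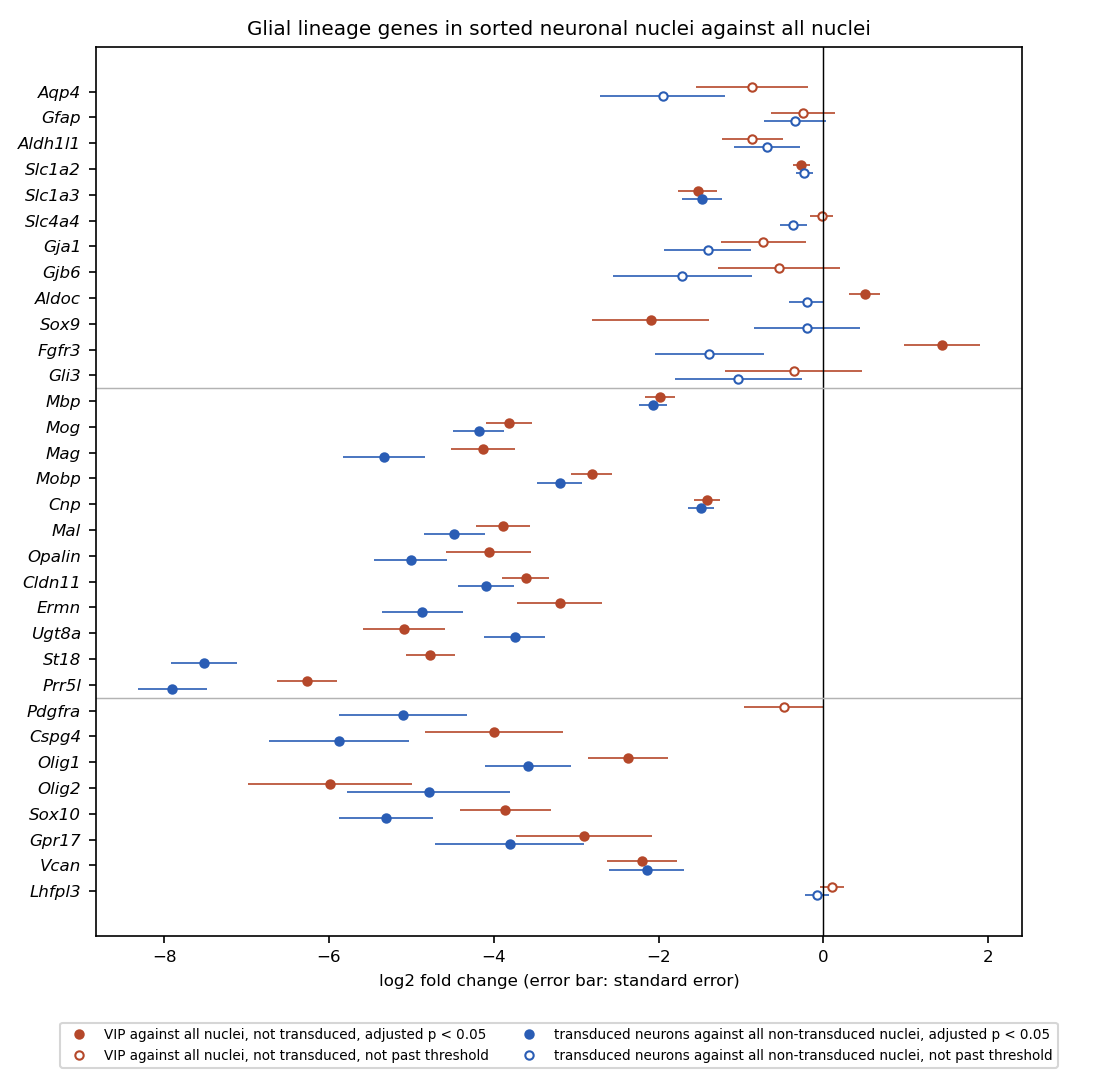
Log2 fold change (x axis, error bar 1 standard error) of each of the 32 genes (y axis; astrocyte, oligodendrocyte, then precursor and lineage genes) in non-transduced VIP nuclei and in transduced neurons, each against all non-transduced nuclei; filled points have an adjusted p under 0.05. All 12 oligodendrocyte genes lie left of 0 in both comparisons, from Cnp at -1.41 to Prr5l at -7.90. The astrocyte genes spread to both sides of 0 in VIP nuclei, and in neurons their median was -0.86.

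Of the 8 precursor and lineage genes, 6 were lower in VIP nuclei, where 19.7% of all genes were. In transduced neurons 7 were lower, where 7.75% of all genes were. The medians were -2.64 and -4.30 on the log2 scale. In the VIP libraries alone 6 of the 8 passed the filter on low counts, and in transduced neurons alone 2 did. The others were tested here only through their level in all nuclei, so for them a lower call was largely set in advance. Sox10 fell from 15 ± 9.94 CPM in all nuclei (SD, n = 22) to 0.96 ± 1.63 CPM in VIP nuclei (SD, n = 22; log2 fold change -3.86 ± 0.55, adjusted p = 8.335e-08). Olig2 had 330 counts over the 22 all-nuclei libraries, 15 counts in 1 of the 22 non-transduced VIP libraries and 0 in the other 21. Cspg4 had 770 counts in all nuclei and 59 in VIP nuclei, where 17 of 22 libraries held none. Olig1 (-2.37 ± 0.49), Gpr17, a receptor of differentiating precursors (-2.91 ± 0.82), and Vcan, a matrix proteoglycan (-2.21 ± 0.43), were lower as well.

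Pdgfra, like Lhfpl3 below, parted from the other precursor markers in the VIP sorts. It ranged from 0 to 26.7 CPM in all nuclei (median 5.51), from 0.17 to 15.1 CPM in non-transduced VIP nuclei (median 4.70), from 0.30 to 30.3 CPM in transduced VIP nuclei (median 3.76) and from 0 to 3.06 CPM in transduced neurons (median 0). Every VIP library held Pdgfra counts, and 12 of the 16 neuron libraries held none. VIP nuclei did not differ from all nuclei past the threshold (log2 fold change -0.48 ± 0.49, adjusted p = 0.5093), while neurons were lower than all nuclei (-5.10 ± 0.77, adjusted p = 2.369e-06) and lower than transduced VIP nuclei (-4.97 ± 0.83, adjusted p = 4.707e-06). In transduced neurons alone Pdgfra fell below the filter on low counts. It was tested in neurons only through its level in the other sort, so both lower calls in neurons were largely set in advance. Among the VIP libraries Cspg4 was at 0 in 17 of 22 non-transduced and 14 of 19 transduced libraries. Pdgfra overlaps other annotated genes on both strands, and their reads cannot be told apart where they overlap.

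Lhfpl3, a tetraspan membrane protein gene used as a precursor marker, stood at a like level in every sort: 169.7 ± 73.9 CPM in all nuclei (SD, n = 22), 183.6 ± 54.3 in non-transduced VIP nuclei (SD, n = 22), 165.0 ± 64.5 in transduced VIP nuclei (SD, n = 19) and 161.0 ± 36.0 in transduced neurons (SD, n = 16). Its log2 fold change was 0.11 ± 0.15 in VIP nuclei and -0.08 ± 0.15 in neurons. Other annotated genes overlap Lhfpl3 on both strands.

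The astrocyte genes did not move as 1 group in VIP nuclei. In VIP nuclei 3 of the 12 were lower, where 19.7% of all genes were, and 2 were higher, where 12.8% were; 7 did not pass the threshold, and the median was -0.45. In transduced neurons 1 of the 12, Slc1a3, was lower, where 7.75% of all genes were, and none was higher, where 3.36% were. Their median in neurons was -0.86 (all genes 0.02). By edgeR 7 of the 12 had an unadjusted p under 0.05 there, against 3915 of the 19304 genes tested. In transduced neurons alone 9 of the 12 passed the filter on low counts. The counts of called genes lie near the shares of all genes. Levels differed widely within the list: Slc1a2, Slc4a4 and Aldoc were abundant in every sort, and Aqp4, Gja1, Gjb6, Sox9 and Gli3 averaged 10.8 CPM or less even in all nuclei.

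Slc1a3 was the astrocyte gene that set all nuclei apart in both comparisons. It ranged from 28.2 to 123.3 CPM in all nuclei (median 48.4), from 0 to 40.8 CPM in non-transduced VIP nuclei (median 18.01) and from 6.41 to 76.7 CPM in transduced neurons (median 15.96). Its log2 fold change was -1.53 ± 0.24 (SE; adjusted p = 7.912e-07) in VIP nuclei and -1.48 ± 0.25 (SE; adjusted p = 1.310e-05) in neurons.

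Slc1a2, the other glutamate transporter, averaged 302.4 ± 86.5 CPM in all nuclei (SD, n = 22), 246.3 ± 54.3 in non-transduced VIP nuclei (SD, n = 22), 206.0 ± 49.9 in transduced VIP nuclei (SD, n = 19) and 269.8 ± 99.9 in transduced neurons (SD, n = 16). The 4 ranges overlapped. The log2 fold change in VIP nuclei was -0.27 ± 0.10 (SE; adjusted p = 0.04089), and with no filter on low counts it no longer passed (adjusted p = 0.06344). Per kb of exon, Slc1a2 (23.0 CPM per kb in all nuclei) stood above Slc1a3 (6.28 CPM per kb) and beside Aldoc (20.6 CPM per kb).

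Sox9, an astrocyte transcription factor, was lower in VIP nuclei (log2 fold change -2.10 ± 0.71, adjusted p = 0.01775), from a mean of only 1.84 ± 1.59 CPM in all nuclei (SD, n = 22). Fgfr3, a fibroblast growth factor receptor, went the other way: it ranged from 0 to 15.4 CPM in all nuclei (median 4.84), from 1.37 to 58.8 CPM in non-transduced VIP nuclei (median 15.2), from 0.15 to 46.4 CPM in transduced VIP nuclei (median 24.2) and from 0 to 7.07 CPM in transduced neurons (median 1.98). It was higher in VIP nuclei than in all nuclei (1.44 ± 0.46, adjusted p = 0.01110) and lower in neurons than in transduced VIP nuclei (-3.27 ± 0.48, adjusted p = 4.362e-07). Fgfr3 overlaps an antisense gene, which an unstranded kit cannot separate.

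Aldoc, a glycolytic aldolase, was also higher in VIP nuclei, at 96.0 ± 49.3 against 67.3 ± 32.7 CPM (SD, n = 22 each; log2 fold change 0.50 ± 0.19, adjusted p = 0.03367), and lower in neurons than in transduced VIP nuclei (-0.86 ± 0.21, adjusted p = 9.760e-04). Slc4a4 was likewise lower in neurons than in transduced VIP nuclei (-0.40 ± 0.15, adjusted p = 0.03625), a call lost without the libraries that stood apart (adjusted p = 0.09744) and with replicate number as a block (adjusted p = 0.1338). Slc1a2 was higher (0.33 ± 0.11, adjusted p = 0.02605), a call lost with another scaling (relative log expression, adjusted p = 0.05553).

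The Slc1a2 difference between those 2 sorts was not alike in the 2 vectors: with the mutant the means were 360.3 ± 36.6 CPM in neurons (SD, n = 8) and 234.3 ± 45.5 in VIP nuclei (SD, n = 9), and with Kir2.1 they were 179.4 ± 36.8 (SD, n = 8) and 180.5 ± 40.2 (SD, n = 10). The difference between the vectors was not tested.

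**Figure D2:**
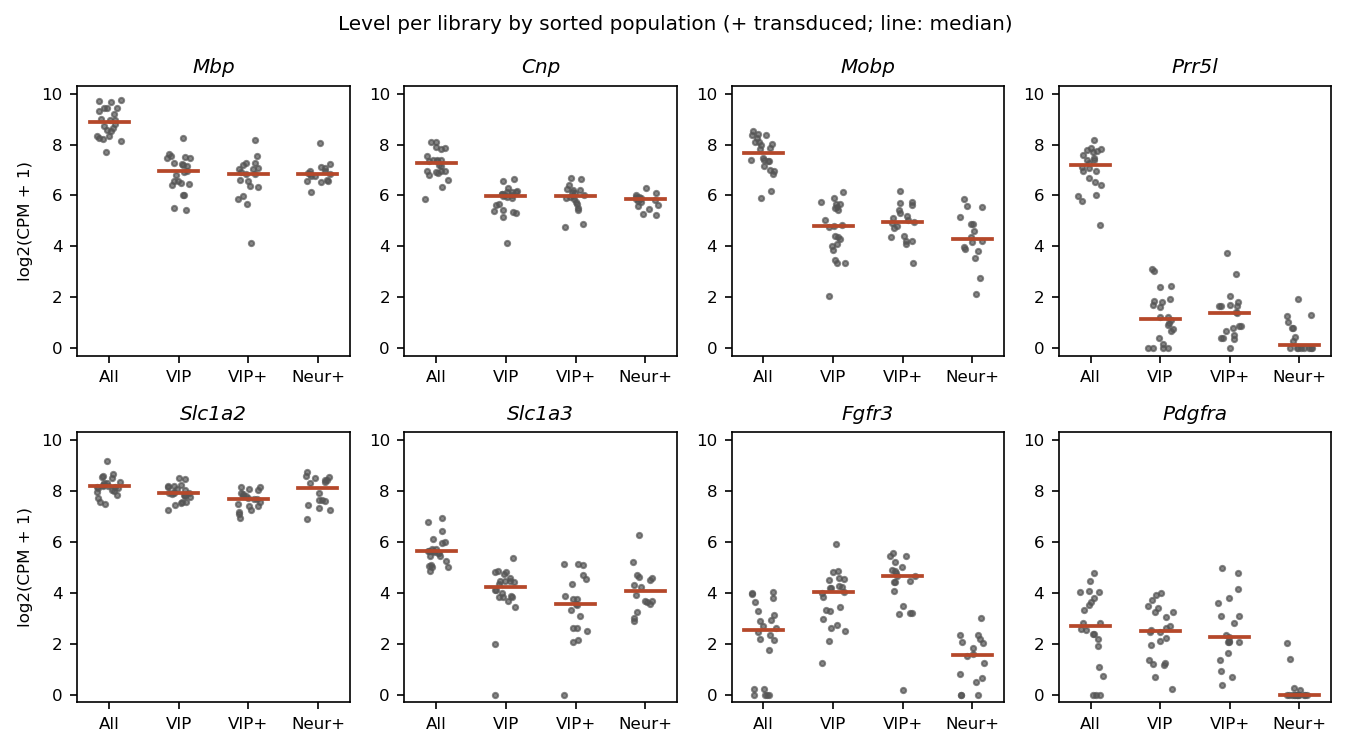
Level of 8 genes (y axis, log2 of CPM + 1) in each library of all non-transduced nuclei, non-transduced VIP nuclei, transduced VIP nuclei (VIP+) and transduced neurons (Neur+); each point is 1 library and the line is the median. Prr5l is near 0 in the sorted neuronal nuclei while Mbp and Cnp stay well above it, and Pdgfra is at 0 in 12 of 16 neuron libraries but in no VIP library.

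The VIP comparison was repeated within each vector and in the mice without AAV. In Kir2.1 mice 18 of the 32 genes were lower in VIP nuclei (13.5% of all genes tested were), and in mutant mice 19 were (12.6% of all genes), with all 12 oligodendrocyte genes among them in each. In the mice without AAV, with 3 libraries against 3, 8 of the 32 were lower (3.46% of all genes), and all 8 were oligodendrocyte genes: St18, Prr5l, Cldn11, Mal, Mog, Opalin, Mag and Mobp. Mbp, Cnp, Ugt8a and Ermn did not pass there, nor did any of the 12 astrocyte or 8 precursor and lineage genes, whose medians were -0.57 and -1.19 on the log2 scale, against -3.22 for the oligodendrocyte genes. Leaving out single libraries was not run for these comparisons within 1 vector. No gene of the 32 passed the test of whether the difference between VIP and all nuclei itself depended on the vector (edgeR, where 0.0% of all genes passed; 2 of the 32 had an unadjusted p under 0.05); Slc1a2 had the smallest p (log2 interaction 0.57 ± 0.21, adjusted p = 0.4721).

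Further glial genes were counted in the same comparison, where 19.7% of all genes were lower and 12.8% higher. Of 19 further oligodendrocyte genes tested, 18 were lower in VIP nuclei and 1 was higher; Plcl1 (-2.84 ± 0.15) and Trf, transferrin (-4.12 ± 0.29), were among those lower. Of 22 further astrocyte genes, 6 were lower and 4 higher, near the shares of all genes; Gpc5, a glypican (-2.95 ± 0.29), and Hepacam, an adhesion protein (-2.20 ± 0.24), were lower, and Atp1b2, a sodium pump subunit (1.72 ± 0.19), was higher. Of 14 further precursor genes, 8 were lower and 3 higher; Ptprz1, a receptor phosphatase, was higher (3.12 ± 0.15), and Tnr, a matrix protein (-1.86 ± 0.12), and Xylt1, a xylosyltransferase (-4.11 ± 0.32), were lower. All 16 microglia markers were lower in VIP nuclei.

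The reactive glia list had 14 of its 18 genes tested in VIP nuclei, of which 4 were lower and 1 higher, again near the shares of all genes. C4b, a complement gene (-3.22 ± 0.61), and Cd44, a hyaluronan receptor (-1.72 ± 0.52), were lower, and Cp, ceruloplasmin, was higher (3.13 ± 0.19, adjusted p = 5.493e-20). Gfap, the astrocyte intermediate filament and one of the 32 genes, was near the same level in every sort, with means from 13.1 to 19.2 CPM, and passed in no comparison between sorts.

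Oligodendrocyte RNA varied several-fold among the 22 all-nuclei libraries, each made from at most 100 nuclei. The summed level of the 12 oligodendrocyte genes ran from 622.3 to 3129 CPM, a 5.03-fold range, against 2.11-fold for the astrocyte genes (454.0 to 959.7 CPM) and 4.22-fold for the precursor and lineage genes (105.2 to 444.5 CPM). To see whether markers of 1 lineage vary together, 6 pairs were correlated over these libraries on the log2(CPM + 1) scale, with two-sided permutation tests of 100000 resamples adjusted over the 6.

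Mbp and Mobp rose and fell together (Pearson r = 0.88, Spearman rho = 0.861, with adjusted permutation p = 6e-05, the smallest the resamples can give for 6 pairs, and 0.00012), with r = 0.834 without the 2 libraries farthest from the median of Mbp, 0.912 within Kir2.1 (n = 10) and 0.891 within mutant (n = 9). Pdgfra and Cspg4 did so less tightly (r = 0.649, adjusted permutation p = 0.00345; rho = 0.634, adjusted permutation p = 0.00612; r = 0.632 without the 2 farthest, 0.658 within Kir2.1 and 0.585 within mutant). The glutamate transporters Slc1a2 and Slc1a3 showed no relation past the threshold (r = 0.195, adjusted permutation p = 0.458; rho = 0.0593); r was -0.144 without the 2 farthest libraries, 0.495 within Kir2.1 and 0.372 within mutant. Between lineages, Slc1a2 with Mbp (r = -0.365, adjusted permutation p = 0.187; -0.0449 without the 2 farthest libraries, -0.315 within Kir2.1 and -0.605 within mutant), Mbp with Pdgfra (r = 0.20, adjusted permutation p = 0.458; 0.355 within Kir2.1 and 0.354 within mutant) and Slc1a2 with Pdgfra (r = -0.0811, adjusted permutation p = 0.719; 0.131 within Kir2.1 and -0.434 within mutant) did not pass either.

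**Figure D3:**
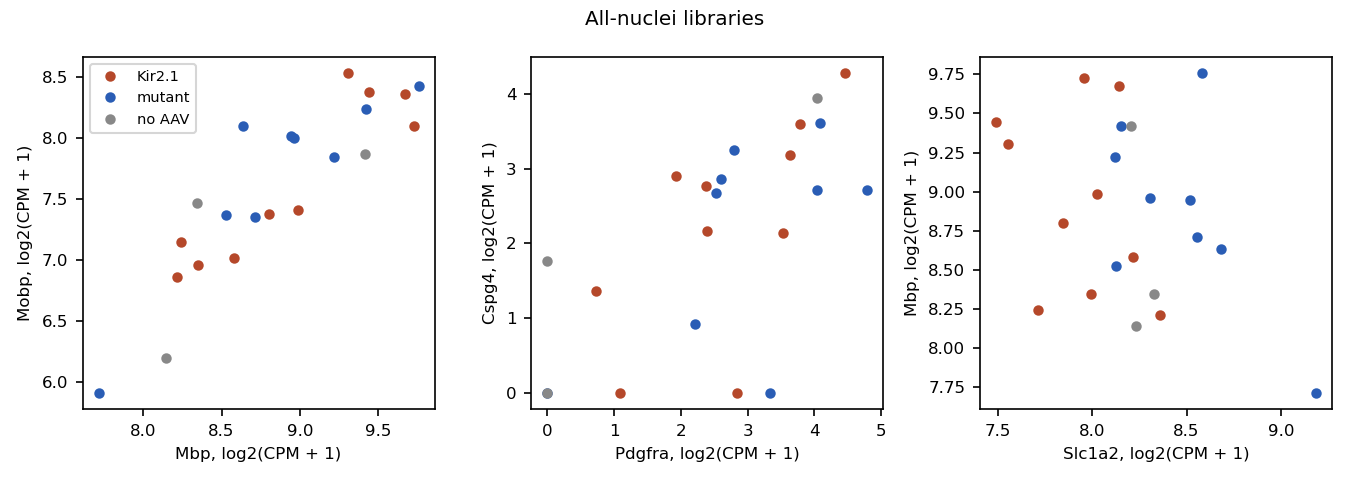
Each point is 1 of the 22 all-nuclei libraries, coloured by vector; both axes are log2 of CPM + 1. Mbp and Mobp lie along a line (r = 0.88), Pdgfra and Cspg4 more loosely (r = 0.649), and Slc1a2 and Mbp without a clear trend (r = -0.365).

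The response to silencing was read from Kir2.1 against the mutant in each sort. In transduced neurons 3 of the 19 genes that passed the filter on low counts differed, Slc1a2, Slc4a4 and Aldh1l1, all astrocyte markers and all lower with Kir2.1; 5.61% of all genes tested were called. The other 13 genes fell below the filter, among them Aqp4, Sox9, Opalin, St18, Prr5l and Pdgfra. None of the 8 oligodendrocyte genes tested passed, and their median was 0.14 (all genes 0.05).

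Slc1a2 (Ensembl ENSMUSG00000005089, chromosome 2, 102658659 to 102790784, + strand, mm10) ranged from 120.1 to 239.2 CPM in Kir2.1 neurons (median 182.9) and from 316.1 to 428.2 CPM in mutant neurons (median 354.3). Every Kir2.1 library lay below every mutant library, 8 against 8. How many of all genes tested separated in this way was not counted, here or in any other comparison. Its log2 fold change was -0.99 ± 0.14 (SE; adjusted p = 5.361e-05), to 50.5% of the mutant level. Slc1a2 and Aldh1l1 each overlap an antisense gene, whose reads an unstranded kit cannot separate.

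Slc4a4 (Ensembl ENSMUSG00000060961, chromosome 5, 88886818 to 89239653, + strand, mm10) ranged from 23.8 to 78.8 CPM in Kir2.1 neurons (median 63.5) and from 78.9 to 134.5 CPM in mutant neurons (median 103.0). The groups did not overlap, but their edges nearly met, at 78.84 CPM with Kir2.1 and 78.88 CPM with the mutant. Kir2.1 neurons differed by -0.76 ± 0.20 on the log2 scale (SE; adjusted p = 0.02101).

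Aldh1l1, a folate enzyme used as an astrocyte marker (Ensembl ENSMUSG00000030088, chromosome 6, 90486427 to 90600203, + strand, mm10), ranged from 1.51 to 11.04 CPM in Kir2.1 neurons (median 2.45) and from 5.55 to 24.5 CPM in mutant neurons (median 14.99), and the groups overlapped. Kir2.1 neurons differed by -1.75 ± 0.47 on the log2 scale (SE; adjusted p = 0.02566). The call was lost without mutant library 3 (adjusted p = 0.07211), 7 (0.05226) or 9 (0.05676), and with replicate number as a block (adjusted p = 0.09953).

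Slc1a3 moved the opposite way from Slc1a2 in these neurons without passing (1.09 ± 0.37, adjusted p = 0.08607), at 27.5 ± 21.5 CPM with Kir2.1 and 13.0 ± 6.30 CPM with the mutant (SD, n = 8 each). Some markers of other cells moved with these results. The summed level of 11 pan-GABAergic gene entries ran from 73.3 to 849.2 CPM in Kir2.1 neurons and from 443.2 to 1141 CPM in mutant neurons. Of these entries 2 belong to the same gene, Dlx6os1, which weighs double in such sums. Of the 8 entries tested, 2 were lower and 0 higher. Of the other markers tested, 1 of 6 VIP neuron markers was lower, 2 of 9 markers of other interneurons were lower and 1 higher, and 2 of 15 excitatory, 2 of 10 pan-neuronal and 1 of 8 microglia markers were higher. The summed oligodendrocyte genes ran from 168.2 to 276.7 and from 145.1 to 427.5 CPM, and the summed microglia markers from 168.4 to 236.2 and from 139.2 to 204.4 CPM. Their part in the result was not tested.

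In transduced VIP nuclei Slc4a4 was the 1 gene of 30 tested that differed, where 1.39% of all genes did. It ranged from 31.6 to 127.2 CPM with Kir2.1 (median 67.5) and from 125.8 to 222.7 CPM with the mutant (median 133.9). All but 1 of the 10 Kir2.1 libraries lay below every mutant library. The log2 fold change was -0.92 ± 0.19 (SE; adjusted p = 0.003364), to 52.8% of the mutant level. Slc1a2 was at -0.36 ± 0.15 (adjusted p = 0.2695), and whether its difference in neurons was larger than in VIP nuclei was not tested.

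Of markers of neurons in the same comparison, 6 of 14 VIP neuron markers and 2 of 11 pan-GABAergic entries were lower and 2 of 15 excitatory markers were higher, and the rest of these lists did not pass. The summed VIP neuron markers ran from 7962 to 13790 CPM with Kir2.1 and from 19080 to 21400 CPM with the mutant, with no overlap. The summed excitatory markers ran from 942.4 to 1655 CPM with Kir2.1 and from 585.6 to 744.1 CPM with the mutant, and the summed pan-GABAergic markers had means of 6113 ± 1864 (SD, n = 10) and 8661 ± 1354 CPM (SD, n = 9). The summed oligodendrocyte genes ran from 103.8 to 483.8 and from 119.8 to 350.4 CPM. Their part in the Slc4a4 result was not tested.

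**Figure D4:**
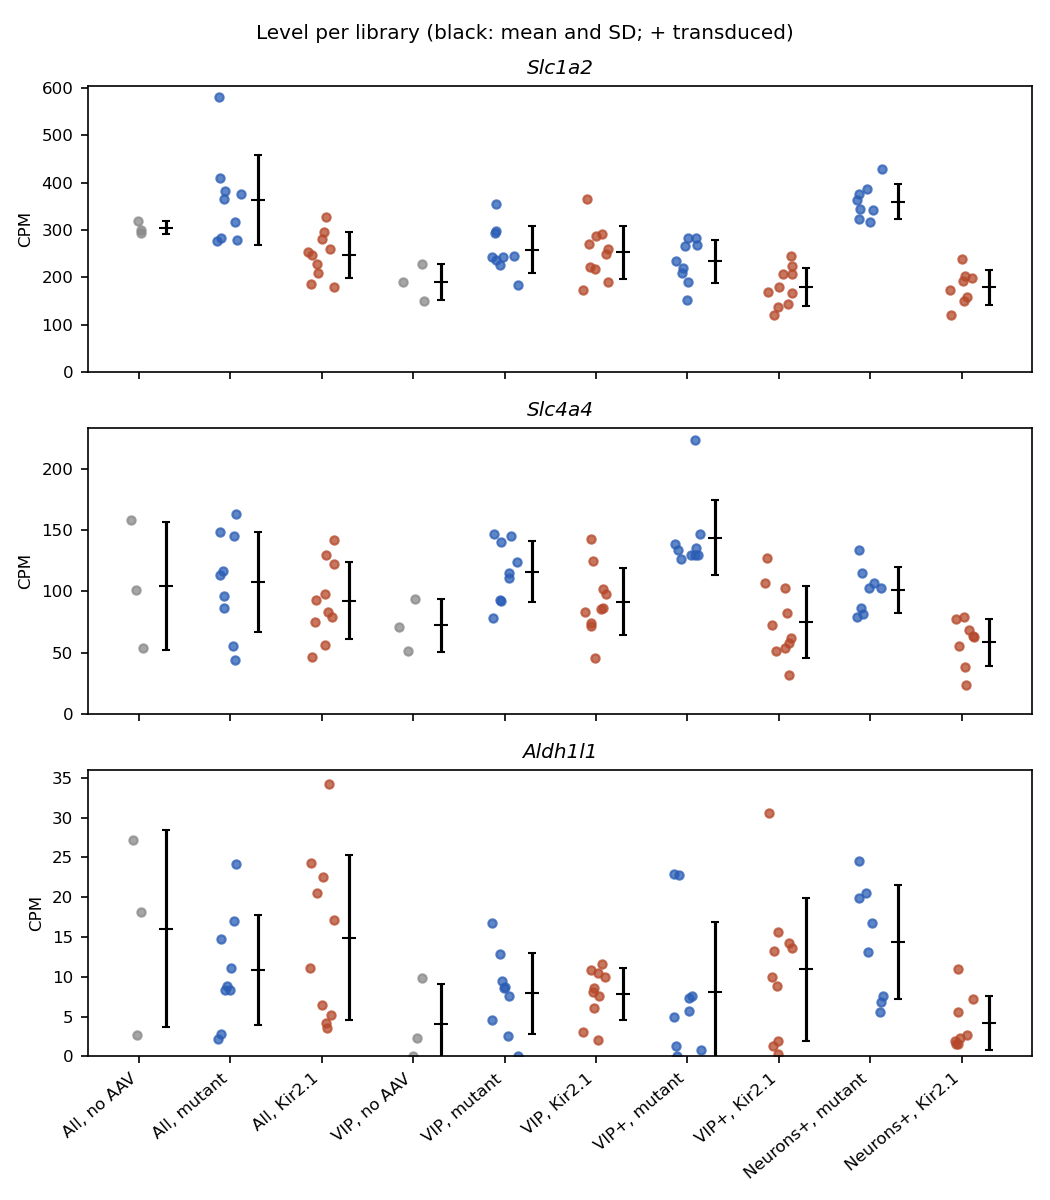
Level in CPM (y axis) of Slc1a2, Slc4a4 and Aldh1l1 in each library of the 10 groups (x axis; + marks transduced nuclei; grey no AAV, blue mutant, red Kir2.1), with the mean and SD in black. In transduced neurons the Kir2.1 libraries lie below the mutant libraries for Slc1a2 (120.1 to 239.2 against 316.1 to 428.2 CPM) and Slc4a4, and in transduced VIP nuclei for Slc4a4 in all but 1 library.

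Of the further glial genes, Ptprz1 (-1.002 ± 0.14, adjusted p = 2.666e-06), Tspan2, a tetraspanin (-1.10 ± 0.24, adjusted p = 0.004265), and Cp (-1.24 ± 0.22, adjusted p = 2.255e-04) were lower with Kir2.1 in transduced VIP nuclei, each the 1 called gene of its list, of 10 precursor, 18 oligodendrocyte and 11 reactive glia genes tested. In transduced neurons Sox5, a SOX factor, was lower (-0.71 ± 0.15, adjusted p = 0.003601) and none of the 19 further astrocyte genes tested passed. None of the 5 reactive glia genes tested passed in neurons, Serpina3n included (-0.23 ± 1.01, adjusted p = 0.9421).

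Non-transduced nuclei gave no called gene among the 32. For all nuclei (0.0% of all genes called; 4 of 32 with an unadjusted p under 0.05) the smallest p belonged to Slc1a2, at 247.2 ± 47.5 CPM with Kir2.1 (SD, n = 10) and 363.0 ± 95.6 CPM with the mutant (SD, n = 9; log2 fold change -0.56 ± 0.15, adjusted p = 0.5212), then Aldoc (0.67 ± 0.27, adjusted p = 0.7703) and Gja1 (1.52 ± 0.64, adjusted p = 0.7898). For non-transduced VIP nuclei (0.0% called; 3 of 30 with an unadjusted p under 0.05) they were Aldoc (0.94 ± 0.29, adjusted p = 0.2687), Lhfpl3 (-0.39 ± 0.18, adjusted p = 0.5323) and Ugt8a (-2.68 ± 1.28, adjusted p = 0.5471). DESeq2 also called none in either.

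Transduced were compared with non-transduced VIP nuclei within each vector, and none of the 30 genes tested was called. With Kir2.1 (0.769% of all genes called; 3 of 30 with an unadjusted p under 0.05) the smallest p belonged to Slc1a2 (-0.47 ± 0.14, adjusted p = 0.1045), Fgfr3 (1.41 ± 0.45, adjusted p = 0.1255) and Ugt8a (2.85 ± 1.27, adjusted p = 0.4109). With the mutant (0.00943% called; 0 of 30 with an unadjusted p under 0.05) it belonged to Slc1a3 (-1.05 ± 0.53, adjusted p = 0.9756). The test of whether transduction acted differently with the 2 vectors (0.401% of all genes called) passed for none (3 of 30 with an unadjusted p under 0.05): Fgfr3 had 1.85 ± 0.65 (adjusted p = 0.2771) and Slc4a4 -0.60 ± 0.27 (adjusted p = 0.5577). DESeq2 called none in these either.

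Against the mice without AAV no gene of the 32 was called by edgeR or DESeq2. All nuclei were compared with Kir2.1 (0.178% of all genes called; 0 of 32 with an unadjusted p under 0.05; Gfap smallest, 1.66 ± 0.83, adjusted p = 0.5687) and with the mutant (0.225% called; 2 of 32 with an unadjusted p under 0.05; Aldoc smallest, -0.87 ± 0.38, adjusted p = 0.3577). Non-transduced VIP nuclei were compared with Kir2.1 (0.00943% called; 3 of 30; Olig1 smallest, -2.86 ± 1.25, adjusted p = 0.6715) and with the mutant (0.0% called; 4 of 30; Aldoc smallest, -1.22 ± 0.39, adjusted p = 0.2715). These comparisons share their 3 libraries without AAV per sort, have wide errors, and differ in sex: by Xist and Ddx3y counts all libraries without AAV are male, and each AAV group holds 4 to 6 female libraries.

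Against no AAV, 0.178% of all genes tested in all nuclei were called with Kir2.1 and 0.225% with the mutant. Of the 12 reactive glia genes tested there, 1 was called with each vector, C4b (Ensembl ENSMUSG00000073418, chromosome 17, 34728380 to 34743882, - strand, mm10), the complement gene. It had 0 counts in all 3 libraries without AAV, from 12.1 to 73.3 CPM with Kir2.1 (median 26.5) and from 6.77 to 34.4 CPM with the mutant (median 23.2), so no library with an AAV overlapped those without. Against an assumed floor of 3 counts over the 3 libraries without AAV, the mean was 178-fold higher with Kir2.1 and 118-fold with the mutant. Libraries of few nuclei may miss a low transcript, so these folds depend on the floor and are no lower bound. By edgeR the adjusted p was 3.232e-05 with Kir2.1 and 7.267e-05 with the mutant. C4b passed the filter on low counts only through the libraries with an AAV, so a higher call was largely set in advance. C4b passed under all 20 settings with Kir2.1 and all 19 with the mutant (largest adjusted p = 0.002526 and 0.003793), sex by RNA as a covariate among them. The list's medians were 1.35 and 1.22 on the log2 scale, with fitted values for genes at 0. Reads of C4b and its near copy C4a may not be separable. Injection, vector and whatever else set these mice apart cannot be told apart.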

How the data were processed

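Nuclei of mouse visual cortex were sorted by FACS, 50 to 100 per library, reverse transcribed with an oligo-dT primer, amplified for 17 PCR cycles and made into libraries with Nextera XT, per the labels' protocols. The deposited table holds raw counts per Ensembl gene for 79 libraries, with no normalization by the authors. Tools named are STAR 2.5.3a, HOMER 4.9.1 and cutadapt 1.18, with the build mm10, per the submitters' processing notes; their roles, and the annotation and strand setting used for counting, are not given in the sources used here. Gene IDs were matched to GENCODE vM21 (55154 matched; 181 were not and held 0.0264% of counts).

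Counts were tested with edgeR 4.0.16 (R 4.3.3; quasi-likelihood F test, TMM scaling, filterByExpr with a minimum count of 10 and total of 15, Benjamini-Hochberg over all genes tested, threshold 0.05). The filter was applied by group, a choice made after a first fit so that fits with covariates or a block kept the same genes. Sorts were compared with vector as a covariate, and vectors within each sort from a fit by group. CPM was TMM-scaled over all libraries. SE is the log2 fold change over the square root of F. Fits of 3 comparisons were also run on simulated counts with a single fixed spread. Only genes of higher count were changed there, so genes at low counts were not covered. The outcome is not reported here. Alternatives were relative log expression scaling, DESeq2 1.42.0, no filter, sex as a covariate, a replicate block, leaving out libraries, CPM by the total count and a pseudocount of 0.1. The genes and lists were chosen with earlier results of these data known. Named genes are those past the threshold or, where none is, with the smallest p in a comparison; of further glial lists, those among the 3 smallest p in VIP against all nuclei, and called genes elsewhere. Not all genes that this rule names are reported here.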

Additional observations from a re-analysis of the deposited data

Results flagged for a closer look

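Summed levels of the 3 gene lists and the levels of Slc1a2, Slc4a4 and Aldh1l1 were searched for single libraries far from the rest of their group. Of 48 sets of libraries searched, 9 gave such a library, by Dixon's criterion for the gap to the nearest library, which chance alone meets in about 1 in 20 independent sets; these sets share libraries and genes.

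Among all nuclei, mutant library 1 had 959.7 CPM of summed astrocyte genes (the other libraries 505.9 to 691.1) and 580.6 CPM of Slc1a2 (277.3 to 409.7). In transduced VIP nuclei with Kir2.1, library 2 had 610.8 CPM of summed astrocyte genes (396.2 to 501.8) and 30.61 CPM of Aldh1l1 (0.278 to 15.55), and library 6 had 278.3 CPM of summed precursor and lineage genes (114.7 to 190.3). In transduced VIP nuclei with the mutant, library 1, which also correlated poorly with its group, had 372.8 CPM of summed precursor and lineage genes (140.4 to 248.7) and 222.7 CPM of Slc4a4 (125.8 to 147.5). Among transduced neurons, mutant library 2 had 427.5 CPM of summed oligodendrocyte genes (145.1 to 253.6) and Kir2.1 library 6 had 251.4 CPM of summed precursor and lineage genes (149.2 to 187.6).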

How the results depend on the processing

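The counts of called genes among the 32 were recomputed under each alternative. Replicate number as a block moved 1 of them by over 1.5 times: mutant against no AAV in non-transduced VIP nuclei went from 0 to 1 called gene (Aldoc). It took the Kir2.1 count in neurons from 3 to 2 (Aldh1l1 lost) and dropped Slc4a4 between neurons and VIP nuclei. Between vectors, or against no AAV, the block joined libraries of different treatment that share only a number. In neurons such libraries did not correlate (median -0.0172 over 7 pairs), so changes under the block between vectors are no check of pairing. Same-numbered libraries of 1 vector correlated weakly (medians from 0.03 to 0.10, not all pairs over 0.1). Differently numbered ones of 1 vector had medians from -0.0144 to 0.0032. By RNA, 0 of 22 sets of 1 vector and number mixed sexes, though each AAV group held male and female libraries. These values point to a shared source for sorts of 1 number, which the labels do not state. The main tests between sorts assumed no pairing and took libraries as independent. Of 438 values recomputed for single called genes, 430 kept their direction and their call, 8 lost the call and 0 changed direction; the 8 belong to Aldh1l1, Slc4a4 and Slc1a2 as given above. Leaving out 1 library at a time, the Kir2.1 difference in neurons ran from -1.06 to -0.92 for Slc1a2, from -0.84 to -0.66 for Slc4a4 (adjusted p up to 0.04716) and from -2.14 to -1.60 for Aldh1l1, and in transduced VIP nuclei from -1.06 to -0.84 for Slc4a4. Sex labels disagreed with the Xist and Ddx3y counts in 32 of 79 libraries; sex read from those counts, an alternative chosen after seeing the data, changed no count of called genes. Scaling by the total count moved 0 of 316 group means by more than 1 SD. Genes at a few CPM, such as Aqp4, Gjb6, Sox9 and Olig2, are limited by depth and by the 50 to 100 nuclei per library.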
